A study of Mus musculus with 50 samples.

Results

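Spleens of BALB/c mice taken 3 h after an intraperitoneal injection of CpG oligodeoxynucleotides (ODN) were compared with spleens of untreated BALB/c mice. The comparison used 10 of the 50 arrays of the series, chosen by their titles: 4 arrays of spleens 3 h after CpG ODN and 6 arrays of untreated spleens. The injected CpG ODN were 400 µg of an equimolar mixture with a phosphorothioate backbone, and the labels give the strain of these animals as BALB/c WT. Untreated mice received no injection. The other BALB/c arrays held spleens 0.5, 1, 9, 24 and 72 h after the same CpG mixture and 3 h after 400 µg of a control ODN mixture, with 4 arrays in each group. A second strain, C57BL/6, was represented by 4 arrays of mice labelled control 3 h after CpG ODN and 4 arrays of untreated control mice. The labels give no dose of CpG ODN for this strain. It also held mice labelled TNF-KO, a knockout of the cytokine TNF. Their arrays entered only the selection of probes and the estimates of spread, within that strain and in the test between strains. The title of each C57BL/6 CpG array gives the treatment, whereas its channel label says untreated, and the title was followed. Nothing in the labels says whether a spleen came from a single mouse or a pool.

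Spleen RNA carried the dye Cy5 on each array, and Cy3 marked the common reference, a mixture of RNA from many mouse cell types. Every level below is the log2 ratio of spleen over that reference, and every difference is a difference of 2 such levels, so that 1 unit is a 2-fold change. Levels of different genes are not set against each other, since a level depends on the probe and on the reference. All spleen cells are in a bulk sample, in which fewer cells of a type and less RNA per cell cannot be told apart.

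Toll-like receptor 9 is an endosomal receptor of innate immunity that recognises DNA with unmethylated CpG dinucleotides, a feature of microbial DNA. In mice it is carried by B cells, dendritic cells and macrophages, all of which are found in the spleen. It signals through the adaptor MyD88, and from there through NF-kB and MAP kinases to inflammatory cytokines and through IRF factors to type I interferon. Interferon in turn acts on its receptor on most cells, and JAK kinases and STAT factors then switch on a large set of antiviral genes.

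The injected sequences are shown because the CpG and control mixtures differ only at the letters that make the receptor's motif. Capitals mark CG dinucleotides, and sequences run 5′ to 3′ as the series gives them.
CpG ODN 1555: gctagaCGttagCGt
CpG ODN 1466: tcaaCGttga
control ODN 1612: gctagatgttagCGt
control ODN 1471: tcaagcttga
The CpG pair held 2 and 1 CG dinucleotides and the control pair held 1 and 0. Counted from 1 at the 5′ end, with the CpG base first and the control base last, the longer pair differed by C7T and the shorter pair by C5G and G6C. The control mixture was therefore not free of CG dinucleotides.

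Most arrays resembled those of their own group more than those of the other group. Over all probes with values, pairwise correlations lay between 0.91 and 0.933 among the CpG 3 h arrays, between 0.864 and 0.956 among untreated arrays, and between 0.80 and 0.876 across the groups. Spleen cells were visible in both groups, with mean log2 ratios over 19 B cell markers of 3.11 ± 0.11 in CpG spleens and 3.28 ± 0.18 in untreated spleens (SD, n = 4 and 6). The mean over 21 exocrine pancreas genes ranged from 0.47 to 5.74 among CpG arrays and from 0.60 to 6.04 among untreated arrays, and the pancreas lies next to the spleen in the mouse. None of these 21 genes passed the test between the groups. Array runs were inferred from the database experiment numbers in the labels, with a new run wherever neighbouring numbers lay more than 10 apart. CpG 3 h arrays 1 and 2 lay in a run without untreated arrays, CpG arrays 3 and 4 shared a run with untreated array 2, and the other 5 untreated arrays lay in a run without CpG 3 h arrays, with the 0.5 h arrays and 1 h arrays 1 and 2. Run and group thus largely coincided. Each difference from untreated BALB/c spleen after CpG was also computed with run as a fixed effect in the fit and within the shared run. The comparison within the shared run sets 2 CpG arrays against 1 untreated array, takes the spread from the other groups and leaves out genes without a value on that untreated array.

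At 3 h after CpG ODN, 1520 of 15264 genes tested (9.96%) differed from untreated spleens at an adjusted p under 0.05, of which 1041 were higher (6.82%) and 479 lower (3.14%). Among these, 597 changed at least 2-fold (3.91%), 513 upward (3.36%) and 84 downward (0.55%). All 4 CpG arrays lay above all 6 untreated arrays for 1155 genes (7.57%) and below them for 782 genes (5.12%). The median difference over all genes was -0.03. With run as a fixed effect 560 genes were higher and 100 lower, and within the shared run 354 were higher and 26 lower. Quantile normalization between arrays gave 1083 higher and 775 lower, 58.3% of calls upward against 68.5%. The rises were spread very unevenly over gene groups, as the plot of lists shows, and the groups are described below from the secreted signals through receptors and signalling to the genes they act on.

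**Figure D1:**
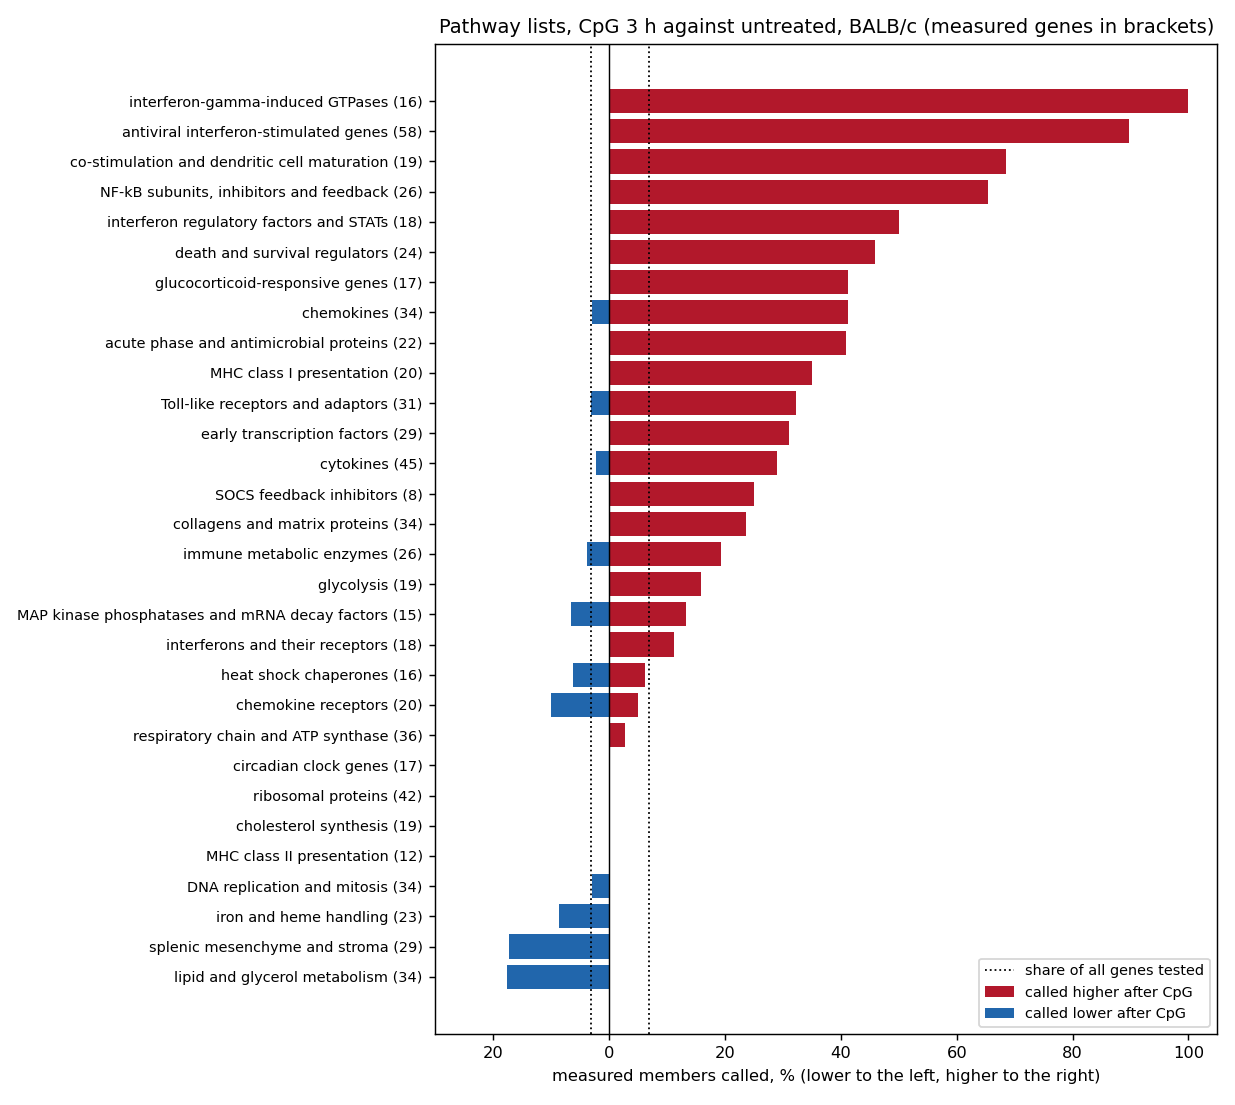
Share of the measured members of each pathway list that was called higher (red, to the right) or lower (blue, to the left) 3 h after CpG ODN against untreated BALB/c spleen, in percent. Dotted lines mark the shares over all genes tested, 6.82% higher and 3.14% lower, and numbers in brackets are measured members. All 16 GTPases and 52 of 58 antiviral genes were called higher, while no ribosomal protein or MHC class II gene was called.

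Among the interferons, a probe assigned to Ifnab, a type I interferon locus, rose and the others did not pass the test. Of 18 measured interferons and interferon receptors, 2 were called higher and none lower, and the list's median difference was 0.07. Ifnab had log2 ratios of 2.07, 1.90, 1.94 and 2.62 on the 4 CpG arrays, against levels -0.09 to 0.84 (median 0.31) on the 6 untreated arrays. Every CpG array lay above every untreated array, and the difference was 1.84 ± 0.24 (SE), adjusted p = 5.56e-07. The probes of Ifna1, Ifna2, Ifna5, Ifna6, Ifna7, Ifna9, Ifna11 and Ifna14, which encode alpha interferons, had differences from -0.12 (Ifna7) to 0.18 (Ifna14), and interferons are near-identical enough for a probe to read more than its own gene. Ifnlr1, the receptor chain of lambda interferon, rose by 1.87 ± 0.28 (adjusted p = 8.49e-06), but its other probe differed by only 0.08. Ifng, the interferon of natural killer and T cells, was at 2.20, 1.65, 2.07 and 1.97 on the CpG arrays and 1.68 to 2.20 (median 1.88) on the untreated arrays. Those ranges overlapped, and its difference of 0.05 ± 0.22 had an adjusted p of 0.943. The genes of the type I receptor, Ifnar1 and Ifnar2, differed by -0.17 and -0.11 and were not called.

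Chemokines, which draw leukocytes into tissue, held several of the largest rises of the whole array. Of 34 measured, 14 were called higher and 1 lower, with a median difference of 0.46, and 11 were called with run in the fit. Cxcl11, a ligand of the receptor CXCR3 on T and natural killer cells, stood at 4.05, 5.16, 4.65 and 4.82 on the CpG arrays against levels 0.12 to 0.87 (median 0.35) on the 4 untreated arrays with a value. The arrays were well apart, with a difference of 4.25 ± 0.41 (adjusted p = 2.83e-09). The related Cxcl9 was higher by 3.15 ± 0.42 (adjusted p = 9.28e-07), although within the shared run its adjusted p was 0.201 at a difference of 2.19. Ccl3, which attracts monocytes and natural killer cells, had levels of 0.02, -0.04, 0.70 and 0.79 after CpG and -3.76 to -3.07 (median -3.43) without treatment. CpG arrays 3 and 4, the ones that share a run with an untreated array, were the higher pair, and all 4 lay above the untreated range, a difference of 3.80 ± 0.24 (adjusted p = 5.82e-14). Its neighbour in function Ccl4 and the monocyte attractant Ccl12 differed by 5.03 ± 0.25 and 4.81 ± 0.36, against 3.73 by a further Ccl4 probe. The neutrophil attractants Cxcl1 and Cxcl2 were higher by 2.60 ± 0.29 and 2.00 ± 0.32 (adjusted p = 3.59e-08 and 1.76e-05), and within the shared run Cxcl2 differed by 2.18 without a call (adjusted p = 0.0522). Ccl24, an attractant of eosinophils, was called lower, with a difference of -0.60 ± 0.19 (adjusted p = 0.043) between CpG arrays at 0.26, -0.04, 0.88 and 0.43 and untreated arrays at 0.58 to 1.36 (median 0.97). Its ranges overlapped. The call was lost with run in the fit (adjusted p = 0.261) and when CpG array 1, 2 or 4 or untreated array 1, 2, 3 or 4 was left out.

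Of 45 measured cytokines, 13 were called higher and 1 lower, with a median difference of 0.28, and the probes of Il2, Il4, Il5 and Il13, cytokines of T cells, were not called. Tnf, which triggers fever and endothelial activation, had levels of 3.26, 1.72, 2.67 and 3.70 on the CpG arrays against 0.44 to 0.75 (median 0.58) on the untreated arrays. CpG array 2 was the lowest of its group and still above every untreated array, and the difference was 2.25 ± 0.36 (adjusted p = 1.84e-05). Il15, which sustains natural killer and memory T cells, had levels of 2.33, 2.07, 1.89 and 2.68 after CpG and -0.08 to 0.31 (median 0.26) without treatment. Its groups were far apart, the difference was 2.04 ± 0.19 (adjusted p = 8.32e-10), and its other probe differed by 1.89. Il10, which restrains macrophages and dendritic cells, rose by 1.64 ± 0.24 (adjusted p = 3.53e-06). Il18, which acts with interleukin 12 on natural killer cells, rose by 1.54 ± 0.22 (adjusted p = 3.25e-06). Within the shared run Il18 differed by 1.49, and it was called with run in the fit (adjusted p = 0.00325). The largest cytokine differences were those of Il12b, a chain of interleukin 12, at 3.67 ± 0.18, and of Il6, an inducer of the acute phase response, at 3.31 ± 0.34. Il7, a survival factor for lymphocytes made by stromal cells, was lower, with CpG arrays at 0.29, -0.49, -0.18 and 0.05 and untreated arrays at 0.69 to 1.11 (median 0.74). All CpG arrays lay below the untreated range, a difference of -0.88 ± 0.21 (adjusted p = 0.00368) that was no longer called with run in the fit (adjusted p = 0.263).

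Tlr9, the receptor of the injected DNA itself, had levels of 0.79, 0.82, 0.58 and 0.59 on the CpG arrays and 0.13 to 0.55 (median 0.21) on the untreated arrays. All 4 CpG arrays lay above the untreated range, but the nearest untreated array reached 0.55, and the difference of 0.43 ± 0.14 passed the threshold narrowly (adjusted p = 0.0452). The difference was 0.19 with run in the fit (adjusted p = 0.761), the call was lost when any single array of the comparison but untreated array 2 was left out, and a further Tlr9 probe differed by 1.13. Of 31 measured Toll-like receptors and adaptors, 10 were called higher and 1 lower, with a median difference of 0.16, and 6 were called higher and none lower with run in the fit. The adaptor Myd88 was at 2.00, 1.81, 1.60 and 1.79 after CpG and 0.04 to 0.67 (median 0.40) without treatment, with a clear gap and a difference of 1.42 ± 0.21 (adjusted p = 4.7e-06). Tlr2, for bacterial lipoproteins, was at 2.24, 1.84, 2.31 and 2.67 on the CpG arrays against 0.02 to 0.56 (median 0.26) on the untreated arrays. Its groups did not overlap and differed by 2.00 ± 0.28 (adjusted p = 3e-06). Tlr7, for single-stranded RNA, rose by 1.49 ± 0.23 (adjusted p = 1.23e-05), and Cd14, a co-receptor that binds lipopolysaccharide and is also a monocyte marker, by 3.39 ± 0.28 (adjusted p = 5.09e-11). Irak3, which blocks signalling downstream of MyD88, rose by 0.95 ± 0.21 (adjusted p = 0.00177), without a call when run was in the fit (adjusted p = 0.12). Cd180, a Toll-like relative on B cells, differed by -0.76 ± 0.23 (adjusted p = 0.0251), and that call was lost with run in the fit and when any CpG array or untreated array 1 or 4 was left out. Among 20 chemokine receptors, Ccr7, which guides dendritic cells and T cells to lymphoid zones, was called higher at 1.15 ± 0.29 (adjusted p = 0.00544), while Xcr1 and Cx3cr1 differed by -0.88 ± 0.20 and -0.92 ± 0.24. None of these 3 receptor calls held with run in the fit, while after quantile normalization 1 receptor was higher and 6 lower and with array weights 3 and 4.

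Of 26 measured genes of the NF-kB pathway and its own brakes, 17 were called higher and none lower, with a median difference of 0.89, and 10 were called with run in the fit and 7 within the shared run. Nfkbiz, a nuclear IkB protein needed for the second wave of NF-kB targets, was at 2.12, 2.72, 2.37 and 2.38 on the CpG arrays against -1.78 to -1.02 (median -1.17) on the untreated arrays. The arrays of a group lay close together, and the difference of 3.66 ± 0.21 (adjusted p = 3.31e-15) was a 12.6-fold change. Tnfaip3, which encodes the ubiquitin-editing inhibitor A20, was at 2.81, 2.87, 2.89 and 2.74 after CpG and 0.18 to 0.61 (median 0.39) without treatment. Its 4 CpG arrays were nearly equal, and the difference was 2.42 ± 0.22 (adjusted p = 3.57e-10). Map3k8, the kinase that links this pathway to ERK, rose by 2.03 ± 0.22, the signalling adaptor Traf1 by 1.84 ± 0.26, the A20-binding Tnip1 by 1.77 ± 0.26 and the ubiquitin ligase Birc3 by 1.58 ± 0.19. Other Tnip1 probes differed by 1.69 and 0.85, and within the shared run Tnip1 differed by 1.53 and was not called (adjusted p = 0.124). The kinase subunit genes Ikbkb and Ikbkg differed by -0.08 and 0.00 and were not called.

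Of 8 SOCS genes, which switch off cytokine receptors, 2 were called, both higher. Socs3, which stops signalling by interleukin 6 receptors, was at 0.82, 1.64, 0.61 and 0.70 on the CpG arrays against -2.96 to -2.03 (median -2.31) on the untreated arrays. CpG array 2 was the highest, all 4 lay far above the untreated range, and the difference was 3.33 ± 0.24 (adjusted p = 1.63e-12). Socs1, which acts on interferon receptors, differed by 2.11 ± 0.27 (adjusted p = 5.24e-07). Among 15 MAP kinase phosphatases and mRNA decay factors, Dusp1, which inactivates p38 and JNK, rose by 2.07 ± 0.30 (adjusted p = 4.79e-06) and Dusp16 by 1.12 ± 0.18 (adjusted p = 3.1e-05). Btg2, an activator of mRNA deadenylation, was the only member called lower, by a difference of -0.59 ± 0.19 (adjusted p = 0.0413). That call was lost with run in the fit (adjusted p = 0.712) and when any single array of the comparison but untreated array 4 was left out.

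Among 18 interferon regulatory factors, STATs and JAK kinases, 9 were called higher and none lower, with a median difference of 0.67, and 5 were called with run in the fit. Stat2, which joins IRF9 in the complex that reads the interferon signal, had the largest difference of the list, 2.03 ± 0.16 (adjusted p = 1.24e-11). Irf9 rose by 1.06 ± 0.17 (adjusted p = 2.23e-05), Irf1 by 1.04 ± 0.24 (adjusted p = 0.00264) and the receptor kinase Tyk2 by 1.23 ± 0.20 (adjusted p = 3.32e-05), although other probes of Irf9 and Tyk2 differed by 0.50 and 0.01. The calls of Irf9, Irf1 and Tyk2 were lost within the shared run (adjusted p = 0.247, 0.0661 and 0.0531). Irf7, the factor that drives alpha interferon genes downstream of TLR9, was at 3.33, 2.17, 2.57 and 2.76 on the CpG arrays and 1.32 to 2.44 (median 1.95) on the untreated arrays. CpG array 2 lay inside the untreated range, so the groups overlapped. The difference of 0.79 ± 0.24 (adjusted p = 0.0305) was not called with run in the fit (adjusted p = 0.408) or when CpG array 1, 3 or 4 or untreated array 2 or 6 was left out. Among 29 early transcription factors, 9 were called higher, with a median difference of 0.31, and 6 were called with run in the fit. Maff, a small MAF protein, had levels of -0.75, -0.85, -0.34 and -0.16 after CpG against -3.07 to -2.24 (median -2.69) without treatment. Its groups were separate and differed by 2.13 ± 0.20 (adjusted p = 6.54e-10), while its other probe differed by 0.39. Batf, an AP-1 factor of lymphocytes and dendritic cells, rose by 1.61 ± 0.28, Atf3, a repressor induced by stress, by 1.10 ± 0.18, and Fos by 1.16 ± 0.27 (adjusted p = 7.48e-05, 2.01e-05 and 0.00346). Within the shared run Batf and Fos differed by 1.38 and 1.54, and both were called with run in the fit (adjusted p = 0.00759 and 0.00247).

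The antiviral interferon-stimulated genes held more called genes than any other list. Of 58 measured, 52 were called higher and none lower, with a median difference of 1.86, and 45 were called with run in the fit and 41 within the shared run. The list mean lay between 2.76 and 3.09 on the CpG arrays and between 0.68 and 0.94 on the untreated arrays. Ifi204, a DNA-binding protein of the interferon-inducible p200 family, had levels of 2.23, 2.60, 2.59 and 2.63 on the CpG arrays against -2.25 to -1.59 (median -1.92) on the untreated arrays. The groups were more than 3 units apart at their nearest arrays, and the difference of 4.46 ± 0.24 (adjusted p = 1.03e-15) was a 22-fold rise. Phf11d, a PHD finger gene, stood at 3.37, 3.08, 3.72 and 3.81 after CpG and -0.83 to -0.24 (median -0.53) without treatment. It changed 16.2-fold, by 4.01 ± 0.18 (adjusted p = 4.33e-17). Mx1, a GTPase that blocks influenza virus in mice that carry an intact gene, was at 4.93, 4.37, 4.33 and 4.58 on the CpG arrays and -0.08 to 0.97 (median 0.60) on the untreated arrays. CpG array 1 was the highest, no array overlapped, and the difference was 4.02 ± 0.27 (adjusted p = 2.2e-13), against 1.67 by its other probe. Usp18, which removes ISG15 from proteins and dampens interferon signalling, differed by 4.01 ± 0.25 (adjusted p = 2.27e-14), and Slfn4, a Schlafen gene of myeloid cells, by 3.82 ± 0.35 (adjusted p = 3.02e-10). The 6 members without a call were Isg20, Ube2l6, Parp9, Trim21, Slfn1 and Tdrd7, with differences from 0.13 (Trim21) to 0.76 (Isg20). Other probes of Parp9 and Ube2l6 differed by 2.46 and 1.08. Several of these genes lie in families with near-identical copies, in which a probe may read more than its own gene.

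Promoters of the leading genes are shown because interferon and NF-kB act through short DNA motifs there. The rule took the largest rises of the antiviral, chemokine, cytokine and GTPase lists and the largest fall, each with a RefSeq promoter on GRCm38.p6 from 250 bases before the transcript start to 50 after it. On both strands, 2 patterns were searched, GAAA followed by any 2 bases and GAAA again, the core of the interferon-stimulated response element, and GGGA followed by any 2 bases and TTCC, a form of the NF-kB site. Capitals mark the matches, and the gene's own strand is printed.
Ifit2, chr19:34550444-34550743, plus strand: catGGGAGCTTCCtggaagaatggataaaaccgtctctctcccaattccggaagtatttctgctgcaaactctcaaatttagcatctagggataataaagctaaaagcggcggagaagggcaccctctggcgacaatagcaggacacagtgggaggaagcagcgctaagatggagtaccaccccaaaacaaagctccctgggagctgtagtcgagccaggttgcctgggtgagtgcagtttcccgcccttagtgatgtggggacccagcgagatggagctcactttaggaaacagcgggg
Ifit3, chr19:34583279-34583578, plus strand: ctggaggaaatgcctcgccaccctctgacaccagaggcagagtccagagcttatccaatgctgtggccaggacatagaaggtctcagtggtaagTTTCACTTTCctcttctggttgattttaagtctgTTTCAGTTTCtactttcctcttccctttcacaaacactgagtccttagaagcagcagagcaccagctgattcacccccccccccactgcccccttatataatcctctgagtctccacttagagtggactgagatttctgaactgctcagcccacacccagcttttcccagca
Gbp2b, chr3:142594597-142594896, plus strand: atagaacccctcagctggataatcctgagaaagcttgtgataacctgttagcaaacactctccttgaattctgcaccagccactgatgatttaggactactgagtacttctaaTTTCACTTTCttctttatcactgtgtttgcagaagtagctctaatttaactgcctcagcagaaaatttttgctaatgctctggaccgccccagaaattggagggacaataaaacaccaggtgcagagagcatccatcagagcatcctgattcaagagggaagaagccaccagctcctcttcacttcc
Ifit3, whose product is an RNA-binding antiviral protein like that of Ifit2, held 2 matches to the interferon element, which began at bases -156 and -122 from the start. Gbp2b held 1 at -137, and Ifit2 held a single match to the NF-kB form at -247 and none to the interferon element in this window. The promoters of Ccl12, Il12b and Tcf21 held no match to either. The core of the interferon element stood in 943 of 27025 promoters of the table (3.49%), in 54 of 399 promoters of genes that rose at least 2-fold (13.5%) and in 2 of 66 of genes that fell at least 2-fold (3.03%). It stood in 17 of 41 promoters of called antiviral genes (41.5%) and in 9 of 10 of called GTPases (90.0%). The NF-kB form stood in 387 of the 27025 (1.43%), in 16 of the 399 (4.01%), in 3 of 9 of called chemokines (33.3%) and in 1 of 14 of called NF-kB pathway genes (7.14%). These counts describe letters, not binding.

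**Figure D2:**
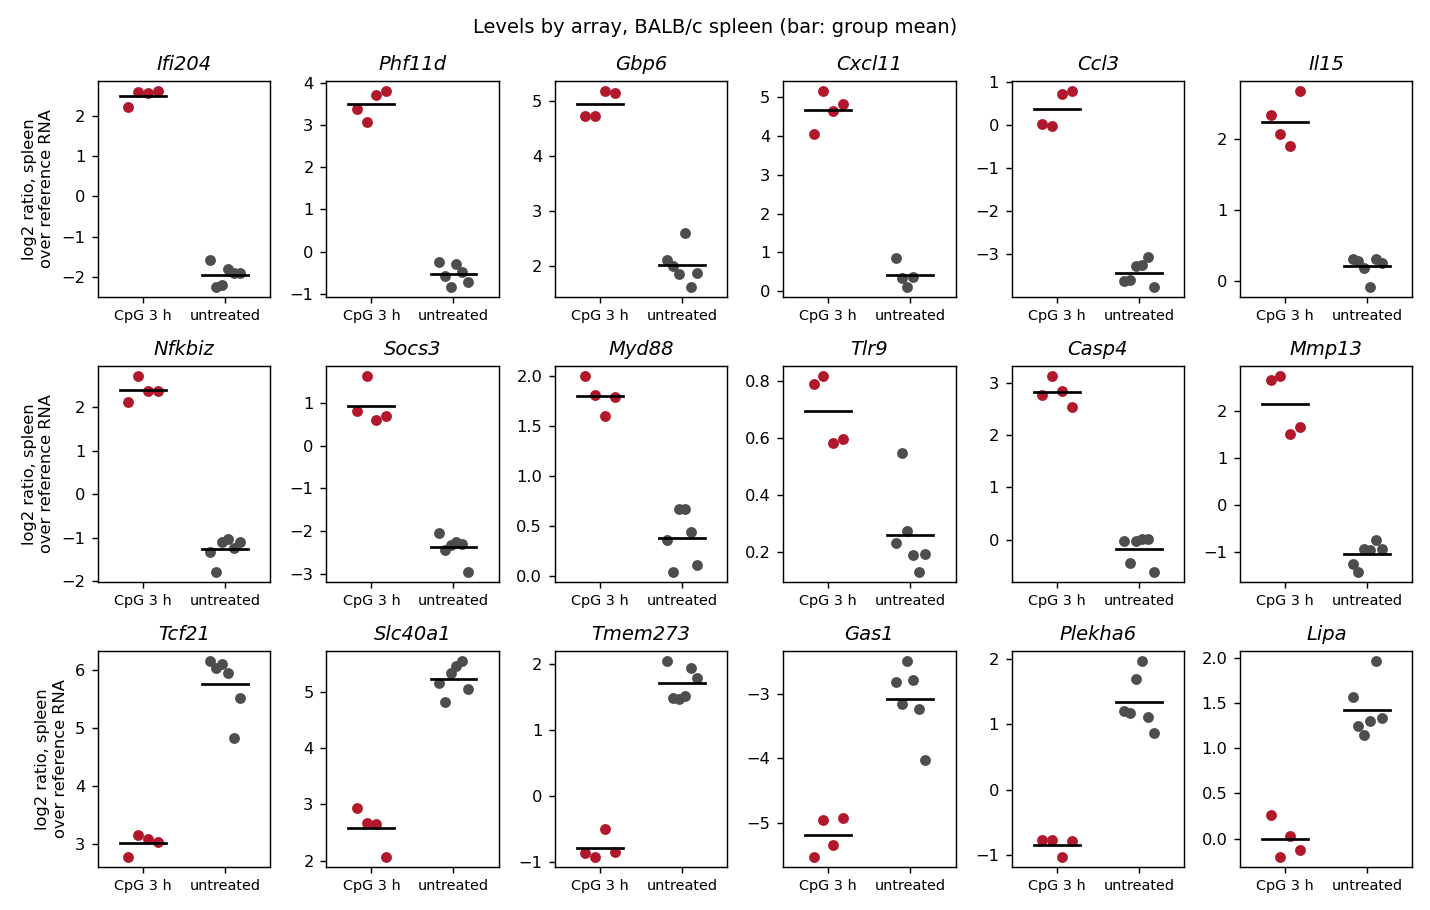
Log2 ratio of spleen over reference RNA on each array for 18 genes, with the 4 arrays 3 h after CpG ODN in red at left and the 6 untreated arrays in grey at right of each panel; the bar is the group mean and each panel has its own scale. No CpG array overlaps an untreated array for any of the 18 genes, and the gap is narrowest for Tlr9, where the lowest CpG array is at 0.58 and the highest untreated array at 0.55. Many of the 18 were named by a rule that took only genes without overlap.

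All GTPases on the list of genes known as targets of interferon gamma rose. These guanylate-binding and immunity-related GTPases attack the vacuoles in which intracellular microbes live. Of 16 measured, 16 were called higher, the median difference was 2.07, and 12 were called with run in the fit and 11 within the shared run. Gbp2b was at 5.92, 5.11, 6.03 and 5.47 after CpG against levels 1.98 to 2.24 (median 2.07) without treatment. No array overlapped, and it changed 11.7-fold, by 3.55 ± 0.26 (adjusted p = 1.13e-12). Gbp6 was at 4.73, 4.73, 5.19 and 5.15 on the CpG arrays and 1.63 to 2.60 (median 1.95) on the untreated arrays. No array overlapped, and the difference was 2.93 ± 0.21 (adjusted p = 3.36e-12). Gbp3 rose by 2.86 ± 0.19, Igtp by 2.35 ± 0.21 and Gbp9 by 2.22 ± 0.19, each with no overlap between the groups. Ifng itself was not called in the same arrays, as given above.

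Antigen presentation genes were called on the class I side. Of 20 class I genes, 7 were called higher and none lower, with a median difference of 0.55, whereas none of 12 class II genes was called. After quantile normalization 6 class I genes were higher and 2 class II genes lower, and with array weights 12 class I genes were higher and no class II gene was called. The class II differences ran from -0.55 (H2-Ob) to 0.22 (Ctss). Tap2, a subunit of the peptide pump of the endoplasmic reticulum, rose by 1.00 ± 0.24 (adjusted p = 0.00484), and the immunoproteasome subunits Psmb9 and Psmb8 by 0.85 ± 0.24 and 0.72 ± 0.21 (adjusted p = 0.017 and 0.022). The class I chains H2-K1 and H2-D1 differed by 0.37 and -0.06 and were not called, and another H2-D1 probe differed by 0.46. With run in the fit 6 class I genes were called higher, with a median difference of 0.79. Tap2, Psmb9 and Psmb8 were among them (adjusted p = 0.00992, 0.0223 and 0.0248). Within the shared run, with a single untreated array, the median difference was 0.66. Psmb9 and Psmb8 lost their calls when CpG array 1 or 4 was left out.

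Co-stimulation and dendritic cell maturation genes were called higher for 13 of 19, with none lower and a median difference of 0.98, and 8 were called with run in the fit. Cd69, an early activation marker of lymphocytes, was at 4.24, 4.53, 4.95 and 5.42 on the CpG arrays and 0.13 to 2.53 (median 1.79) on the untreated arrays. The untreated arrays were spread over more than 2 units, yet none reached the CpG arrays, and the difference was 3.11 ± 0.29 (adjusted p = 7.55e-10). Il15ra, which presents interleukin 15 to other cells, was higher by 2.24 ± 0.23 (adjusted p = 6.99e-09), and its other probes differed by 0.90, 0.28, 0.08, 2.12 and 0.56. Cd274, the inhibitory ligand PD-L1, had levels of 2.84, 2.77, 2.73 and 3.46 after CpG and 0.27 to 1.08 (median 0.82) without treatment. CpG array 4 was the highest, and the difference was 2.19 ± 0.22 (adjusted p = 3.56e-09). The adhesion molecule Icam1 rose by 1.74 ± 0.22 and the maturation marker Cd83 by 1.62 ± 0.43 (adjusted p = 3.59e-07 and 0.00991), and the call of Cd83 was lost within the shared run (adjusted p = 0.724).

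Regulators of cell death and survival were called higher for 11 of 24, with none lower and a median difference of 0.39. Casp4, the sensor of intracellular lipopolysaccharide that cuts gasdermin D, was at 2.77, 3.13, 2.84 and 2.55 on the CpG arrays and -0.61 to 0.02 (median -0.02) on the untreated arrays. It changed 8-fold, by 3.00 ± 0.22 (adjusted p = 2.16e-12), and its other probe differed by 2.94. Gadd45b, a stress gene that restrains JNK, rose by 3.05 ± 0.20, the chromatin and death adaptor Daxx by 2.31 ± 0.16, the death receptor Fas by 1.89 ± 0.22 and the necroptosis effector Mlkl by 1.87 ± 0.22. No CpG array overlapped an untreated array for any of these 5 genes.

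Among 26 immune metabolic enzymes, 5 were called higher and 1 lower. Acod1, which makes itaconate in activated macrophages, was at 1.02, 1.15, 1.33 and 1.51 after CpG and -2.12 to -0.66 (median -1.37) without treatment. The difference was 2.73 ± 0.28 (adjusted p = 5.48e-09). Nampt, an enzyme of NAD synthesis, rose by 2.43 ± 0.18, the mitochondrial superoxide dismutase Sod2 by 1.90 ± 0.15 and Ch25h, which makes an antiviral oxysterol, by 1.77 ± 0.23. Of 19 glycolysis genes 3 were called higher, namely the regulator Pfkfb3 (1.83 ± 0.19), the hexokinase Hk2 (1.30 ± 0.18) and Hif1a (1.00 ± 0.17), a transcription factor that drives the pathway. Respiratory chain and ATP synthase genes were called for 1 of 36, DNA replication and mitosis genes for 1 of 34, and ribosomal proteins, cholesterol synthesis enzymes and clock genes for 0 of 42, 19 and 17. With array weights 5 replication and mitosis genes were lower, and 2 clock genes were higher and 3 lower. The median replication and mitosis gene differed by -0.24, by -0.75 with run in the fit and by -0.68 within the shared run.

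Acute phase and antimicrobial proteins were called higher for 9 of 22 and lower for none. Mt2, a metallothionein that binds zinc, was at 0.30, 0.18, 0.64 and 1.02 on the CpG arrays and -3.29 to -2.56 (median -2.80) on the untreated arrays. The nearest arrays of the groups were more than 2 units apart, with a difference of 3.41 ± 0.34 (adjusted p = 3.07e-09). Lcn2, which withholds iron from bacteria by binding siderophores, rose by 2.64 ± 0.37 and the serpin Serpina3f by 3.02 ± 0.34 (adjusted p = 2.16e-06 and 4.68e-08). Of 17 genes known to respond to glucocorticoids, 7 were called higher and none lower, and 4 were called with run in the fit. Il1r2, the decoy receptor for interleukin 1, was at 4.91, 4.22, 5.59 and 5.24 after CpG and 0.77 to 1.77 (median 1.41) without treatment, a difference of 3.67 ± 0.26 (adjusted p = 1.2e-12). Fkbp5, a chaperone of the glucocorticoid receptor, rose by 2.02 ± 0.29 and Errfi1, a brake on EGF receptors, by 2.73 ± 0.34 (adjusted p = 3.07e-06 and 3.04e-07), although another Errfi1 probe differed by -0.21.

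Collagens, matrix proteins and their proteases were called higher for 8 of 34 and lower for none, with 5 called with run in the fit and 3 within the shared run. Of the 8, 5 were proteases or protease inhibitors and 3 were collagens. Mmp13, a collagenase, was at 2.67, 2.75, 1.52 and 1.66 on the CpG arrays and -1.41 to -0.74 (median -0.93) on the untreated arrays. CpG arrays 1 and 2, of the run without untreated arrays, were about 1 unit above arrays 3 and 4, and all 4 lay above the untreated range, with a difference of 3.18 ± 0.24 (adjusted p = 2.46e-12) and of 3.00 within the shared run. Mmp3 rose by 2.19 ± 0.25, the protease inhibitor Timp1 by 1.43 ± 0.17 and the basement membrane collagen Col4a1 by 1.11 ± 0.18, which was not called within the shared run (adjusted p = 0.0759). Adamts4, an aggrecanase, differed by 1.49 ± 0.27 (adjusted p = 0.000155), but the single untreated array that shares a run with CpG arrays stood at 0.65, level with them, and within that run the difference was -0.01 (adjusted p = 0.998). With run in the fit its adjusted p was 0.424.

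The falls were fewer and smaller, and among the largest were genes of the splenic stroma and of red pulp macrophages. Of 29 measured mesenchyme and stroma genes, 5 were called lower and none higher, with a median difference of -0.01, and 2 of the 5, Tcf21 and Id4, were called with run in the fit. The other 3 were Tlx1, the growth factor receptor gene Pdgfrb (-0.55 ± 0.16) and the binding protein gene Igfbp5 (-0.85 ± 0.25). Pdgfrb also lost its call when CpG array 1, 3 or 4 or untreated array 5 was left out, and Igfbp5 when CpG array 1, 3 or 4 or untreated array 3 or 4 was. Tcf21, a transcription factor of spleen mesenchyme, was at 2.77, 3.15, 3.08 and 3.03 on the CpG arrays and 4.83 to 6.16 (median 5.99) on the untreated arrays. It was 6.77-fold lower, a difference of -2.76 ± 0.28 (adjusted p = 5.74e-09), and its other probe differed by -2.50. Tlx1, the factor without which mice form no spleen, was at 2.29, 3.41, 3.48 and 3.07 after CpG and 3.42 to 5.27 (median 4.95) without treatment. The highest CpG array reached just above the lowest untreated array, and the difference of -1.64 ± 0.36 (adjusted p = 0.00155) was -0.91 with run in the fit (adjusted p = 0.499). Outside the list, Gas1, a membrane protein that binds hedgehog ligands, was at -5.53, -4.95, -5.34 and -4.92 on the CpG arrays and -4.02 to -2.50 (median -2.98) on the untreated arrays. All CpG arrays lay below the untreated range, with a difference of -2.10 ± 0.22 (adjusted p = 1.28e-08). Pcdh18, a protocadherin, was lower by a difference of -2.46 ± 0.39, and Gucy1a1, a subunit of the nitric oxide receptor of smooth muscle, by one of -1.60 ± 0.24, and neither was called with run in the fit (adjusted p = 0.0811 and 0.062).

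Other falls were of genes on no list. Tmem273, a membrane protein gene, was at -0.86, -0.92, -0.50 and -0.84 on the CpG arrays and 1.47 to 2.04 (median 1.65) on the untreated arrays. It was 5.6-fold lower, a difference of -2.48 ± 0.17 (adjusted p = 6.5e-13), and a further probe differed by -1.52. Plekha6, with a pleckstrin homology domain, was at -0.76, -0.77, -1.03 and -0.79 after CpG and 0.86 to 1.96 (median 1.18) without treatment. The gap was clear, at -2.17 ± 0.22 (adjusted p = 2.95e-09), and its other probe differed by -1.13. Arvcf, a catenin of cell junctions, differed by -1.98 ± 0.23, and Rims3, a protein of vesicle release in neurons, by -2.07 ± 0.24, although another Rims3 probe differed by -0.08.

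Of 23 iron and heme genes, 2 were called, both lower, against 5 lower after quantile normalization and 4 with array weights. Slc40a1, ferroportin, through which red pulp macrophages release the iron of old red cells, was at 2.94, 2.67, 2.65 and 2.06 on the CpG arrays and 4.82 to 5.55 (median 5.26) on the untreated arrays. It was 6.3-fold lower, a difference of -2.65 ± 0.22 (adjusted p = 4.83e-11). Slc48a1, which carries heme out of the phagosome, was lower by a difference of -1.05 ± 0.23 (adjusted p = 0.00155). Within the shared run Slc48a1 differed by -1.09, and it was called with run in the fit (adjusted p = 0.0186). The ferritin genes Fth1 and Ftl1 and the heme oxygenase gene Hmox1 differed by 0.00, -0.27 and -0.53 and were not called. Of 34 lipid and glycerol genes, 6 were called lower and none higher, and 3 of the 6 held with run in the fit. Lipa, the lysosomal lipase, was at 0.27, -0.20, 0.03 and -0.13 after CpG and 1.15 to 1.97 (median 1.32) without treatment. No array overlapped, and the difference was -1.44 ± 0.15 (adjusted p = 1.08e-08). Scd2, a fatty acid desaturase, differed by -1.16 ± 0.18, and by -0.94 within the shared run. It was called with run in the fit (adjusted p = 0.0237). Cpt1a and Acadm, which serve fatty acid oxidation in mitochondria, differed by -1.0 ± 0.17 and -0.90 ± 0.15, and their calls were lost with run in the fit (adjusted p = 0.0702 and 0.104).

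Smaller lists held 1 to 3 calls each, where 6.82% of all genes tested were called higher and 3.14% lower. Hdc, the enzyme that makes histamine, was the only one of 8 mast cell and basophil markers called, at 3.09, 2.68, 3.41 and 3.64 on the CpG arrays and 0.17 to 1.33 (median 0.46) on the untreated arrays. Its groups did not overlap and differed by 2.68 ± 0.32 (adjusted p = 9.64e-08). Selp, P-selectin, which slows leukocytes on the vessel wall and is also stored in platelets, rose by 1.69 ± 0.22 (adjusted p = 3.98e-07). It was 1 of 2 endothelial markers of 24 called higher, and the tight junction gene Cldn5 was called lower by a difference of -1.03 ± 0.32. Among 16 heat shock chaperones Hspb1 rose by 1.60 ± 0.29 and Dnajb1 differed by -0.92 ± 0.26. Of 7 plasma cell genes Tnfrsf17 and Mzb1 were lower, by differences of -0.80 ± 0.23 and -0.81 ± 0.24, and 1 was higher, the transcription factor gene Irf4, which rose by 0.67 ± 0.19 and was called with run in the fit (adjusted p = 0.0279). Irf4 lost its call when CpG array 3 or 4 or untreated array 2 was left out. None of Cldn5, Dnajb1, Tnfrsf17 and Mzb1 was called with run in the fit. Each also lost its call when CpG array 4, among others, was left out. Hspb1 differed by 1.48 within the shared run and was called with run in the fit (adjusted p = 0.00152). None of 10 adipose tissue markers was called.

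Some markers of blood-borne myeloid cells were called higher, while lymphocyte and erythroid markers were mostly not called. The shares over all genes tested were 6.82% higher and 3.14% lower. Of 16 monocyte markers 8 were called higher, and the list mean was 2.67 to 2.84 on the CpG arrays and 1.62 to 2.13 on the untreated arrays. Ms4a6d, a membrane protein of monocytes and macrophages, was at 5.53, 5.23, 5.90 and 5.56 after CpG and 1.18 to 2.02 (median 1.67) without treatment, a difference of 3.95 ± 0.22 (adjusted p = 3.22e-15). Of 21 neutrophil markers 9 were called higher, with list means of 2.74 to 3.00 after CpG and 1.40 to 2.15 without treatment. Mmp8, the neutrophil collagenase, was at 5.06, 3.92, 4.86 and 5.22 on the CpG arrays and 1.09 to 2.06 (median 1.69) on the untreated arrays, and differed by 3.15 ± 0.34 (adjusted p = 1.72e-08). Fpr2, a receptor that guides neutrophils to bacterial peptides, rose by 4.11 ± 0.86 (adjusted p = 0.000941), but by only 2.36 within the shared run. Its adjusted p with run in the fit was 0.0405. With run in the fit 5 monocyte and 4 neutrophil markers were called. The median neutrophil marker differed by 0.24 and the median monocyte marker by 0.55, and with run in the fit these medians were 0.77 and 0.99. Gzmb, the granzyme of killer cells, rose by 2.84 ± 0.31 (adjusted p = 1.59e-08), with 2 of 17 natural killer cell markers called higher. None of 19 B cell markers and none of 22 erythroid markers was called, and 2 of 23 T cell markers were, Ctla4 upward and Cd3g downward, both without a call when run was in the fit. The median erythroid marker differed by -0.27, by -0.64 with run in the fit and by -0.75 within the shared run. After quantile normalization 4 B cell and 4 T cell markers were called lower, and with array weights 2 and 5. Cd3g also lost its call when CpG array 1, 2 or 3 or untreated array 1, 2 or 3 was left out. Among 27 red pulp and marginal zone macrophage markers, Msr1, a scavenger receptor, and Spic, the factor that makes red pulp macrophages, were higher by 2.16 ± 0.23 and 1.01 ± 0.24, although the other probes of Msr1 differed by only 0.60 and 0.64, whereas 3, Slc40a1 among them, were lower. After quantile normalization 2 of these macrophage markers were higher and 7 lower, and with array weights 4 and 4. Spic was not called with run in the fit (adjusted p = 0.228). Of the 16 conventional dendritic cell markers 4 were higher and 3 lower, with Ly75, an antigen uptake receptor, at 1.26 ± 0.17 and Cadm1, an adhesion protein, at -0.90 ± 0.18, and Cadm1 was not called with run in the fit (adjusted p = 0.0708), which left 2 higher and none lower. The part that changed cell numbers had in the gene differences was not tested.

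**Figure D3:**
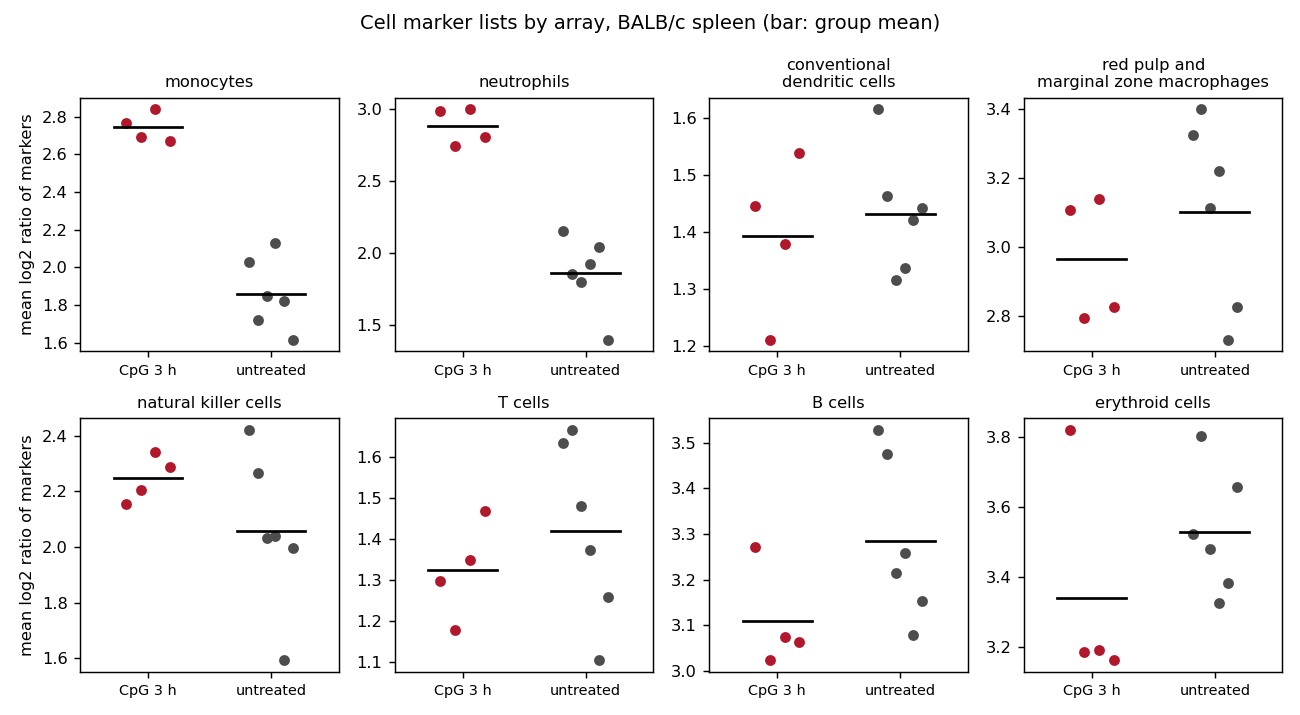
Mean log2 ratio over the measured markers of 8 cell types on each array, with CpG 3 h arrays in red at left, untreated arrays in grey at right and the group mean as a bar; each panel has its own scale. The CpG arrays lie above all untreated arrays for monocytes (2.67 to 2.84 against 1.62 to 2.13) and neutrophils (2.74 to 3.00 against 1.40 to 2.15) and overlap them for the other 6 cell types.

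The 3 h arrays were also set against the 1 h and 9 h arrays, to place these changes in time. These comparisons share the CpG 3 h arrays with the comparison above. Between 3 h and 1 h 1540 genes were called (10.1%), 623 higher at 3 h (4.08%) and 917 lower (6.01%). Between 9 h and 3 h 152 were called (0.996%), 28 higher at 9 h (0.183%) and 124 lower (0.812%). Some early genes were already lower at 3 h than at 1 h. Cxcl2 had a log2 difference of -3.32 for 3 h minus 1 h, Fos of -2.95, Cxcl1 of -2.61 and Cd83 of -2.10, each called, although at 3 h each was called higher than in untreated spleens. Ccl3 differed by -0.01 between 3 h and 1 h and then by -1.97 between 9 h and 3 h, and Cd14 by -0.27 and -1.88. The 9 h falls of both were called, and their differences between 3 h and 1 h were not. Antiviral genes were mostly higher at 3 h than at 1 h. Of the 58 measured, 47 were higher at 3 h than at 1 h and 3 were lower at 9 h than at 3 h, with Ifi204 at 3.85 and Phf11d at 3.63 for 3 h minus 1 h. Mmp13 and Casp4, 2.80 and 2.09 above their 1 h levels, were lower again at 9 h by differences of -1.30 and -1.13. Tcf21 and Gas1, both lower at 3 h than in untreated spleens, were also lower at 3 h than at 1 h. Tcf21 differed by -3.50 between 3 h and 1 h and by 1.42 between 9 h and 3 h, and Gas1 by -1.64 and 1.36, all 4 called, and both genes were nearer their untreated means at 9 h than at 3 h. Of the 21 neutrophil markers 1 was higher and 6 were lower at 3 h than at 1 h. With run in the fit, 389 genes were called between 3 h and 1 h, 258 higher at 3 h and 131 lower, so that most calls were then upward, and 54 between 9 h and 3 h.

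**Figure D4:**
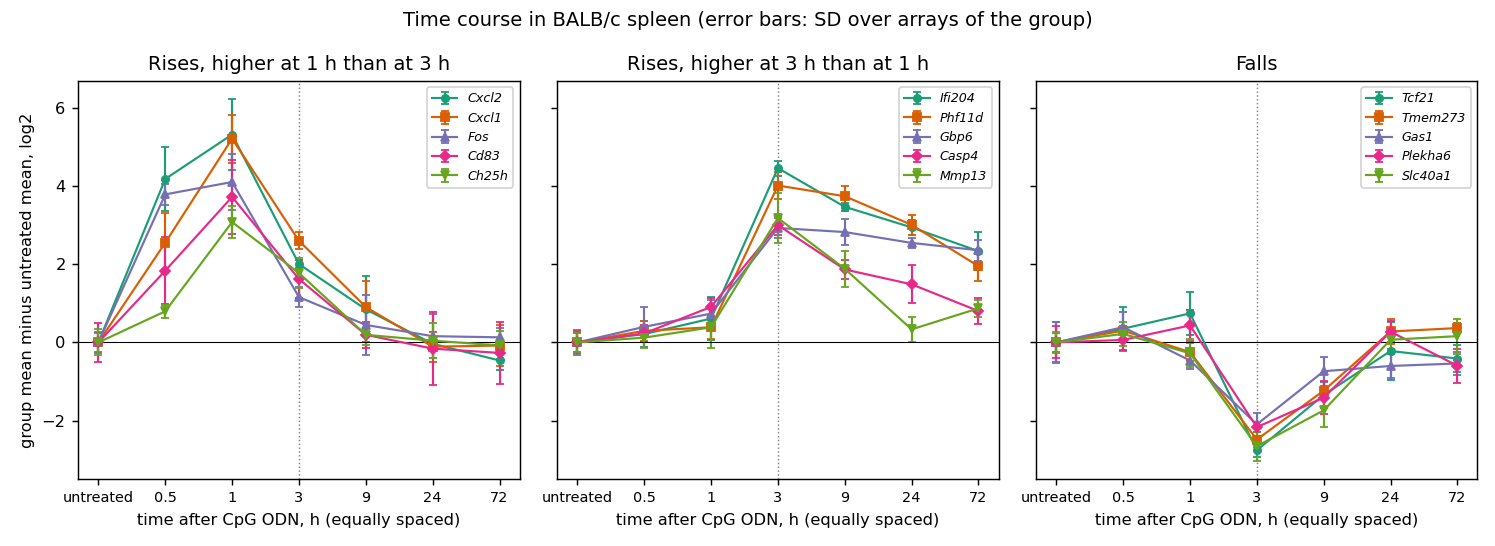
Group mean of the log2 ratio minus the untreated mean in BALB/c spleen, for untreated mice and the times after CpG ODN from 0.5 to 72 h (equally spaced, not to scale), with error bars of 1 SD over the arrays of a group and a dotted line at 3 h. The 5 genes at left are called lower at 3 h than at 1 h, those in the middle are called higher (Ifi204 by 3.85), and those at right are called lower at 3 h than at 1 h and have their lowest mean at 3 h (Tcf21, -2.76 ± 0.28 against untreated).

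The control ODN mixture was given at the same dose and time, and fewer genes passed the adjusted threshold after it. These comparisons share the untreated or the CpG 3 h arrays with the main one. Against untreated spleens 216 genes were called (1.42%), 160 higher (1.05%) and 56 lower (0.367%). At an unadjusted p under 0.05 the numbers were 3412 genes for control ODN and 3040 for CpG, each against untreated spleens. The total of 216 was 0 genes by limma without control ODN array 1, with 2170 genes at an unadjusted p under 0.05, and 2127 without control ODN array 4. The control arrays shared their run only with the 72 h arrays, so that run and treatment cannot be told apart in any comparison with them. Between CpG and control ODN 2790 genes were called (18.3%), 1130 higher after CpG (7.4%) and 1660 lower (10.9%). Of the 58 antiviral genes, 49 were higher with CpG than with control ODN and 3 were higher with control ODN than without treatment. Of the 45 cytokines, 13 were higher and 2 lower with CpG than with control ODN. Between CpG and control ODN, Ifi204 differed by 3.95 ± 0.26 (adjusted p = 3.22e-13), Cxcl11 by 4.28 ± 0.41 (adjusted p = 3.63e-09) and Il12b by 4.02 ± 0.24 (adjusted p = 8.16e-13). Control ODN minus untreated gave 0.51 ± 0.24, -0.03 ± 0.41 and -0.36 ± 0.23 for the same 3 genes, none called. Some genes moved with either mixture. Mmp8 was higher after CpG than after control ODN by 1.07 ± 0.38 and higher after control ODN than without treatment by 2.08 ± 0.34. For Slfn4 the 2 differences were 2.24 ± 0.38 and 1.57 ± 0.35, and for Il1r2 they were 2.23 ± 0.29 and 1.43 ± 0.26, and all 6 were called. For other genes the mixtures were not shown to differ. Fkbp5 differed by 0.54 ± 0.31 between CpG and control ODN (95% interval -0.10 to 1.18, adjusted p = 0.241), while control ODN minus untreated was 1.48 ± 0.29 (adjusted p = 0.0235). Myd88 differed by 0.41 ± 0.23 between the mixtures (95% interval -0.05 to 0.87, adjusted p = 0.212), while control ODN minus untreated was 1.01 ± 0.21 (adjusted p = 0.024). The intervals are for single genes and not adjusted for the number of genes. Neutrophil markers were called higher after control ODN for 5 of 21, with a median difference from untreated of 0.78, and between CpG and control ODN 4 were higher and 1 lower with a median of -0.38.

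CpG ODN at 3 h in C57BL/6 mice, at a dose the labels do not give and on arrays not used above, gave calls for 1151 of 14951 genes tested (7.7%), 740 higher (4.95%) and 411 lower (2.75%). Of 14903 genes tested in both strains, 1029 rose in BALB/c and 737 in C57BL/6, and 492 rose in both, which is 47.8% of the BALB/c rises and 66.8% of the C57BL/6 rises. Falls numbered 477 and 411, with 162 shared (34% and 39.4%), and no gene was called in opposite directions. Of the antiviral list 45 of 58 rose in C57BL/6, and of the GTPases 12 of 16. Phf11d differed by 2.97 in C57BL/6, Nfkbiz by 2.95, Socs3 by 3.01, Tcf21 by -2.26, Slc40a1 by -2.77 and Tmem273 by -2.55, all called and in the BALB/c direction. Il15 differed by 0.75 and Tlr9 by -0.05, and neither was called there, but the difference between the strains was not called for either gene.

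The difference between the strains' responses was itself tested over all 50 arrays. It was called for 69 genes (0.453%), of which 67 had a higher difference of CpG minus untreated in BALB/c (0.44%) and 2 a lower one (0.0131%). Gbp2b differed by 3.71 between the strains, with a response of -0.16 in C57BL/6. Ifi202b, a gene of the p200 family, rose by 3.54 ± 0.21 in BALB/c and differed by -0.14 in C57BL/6, a strain difference of 3.67. Cxcl11 rose less in C57BL/6, by 1.21, and so did Gbp3, by 1.18, with strain differences of 3.03 and 1.68. For Ifnab the C57BL/6 difference was -0.21 and the strain difference 2.04. Strain differences below 0 were those of Clec5a and Eva1a. Clec5a, a myeloid lectin receptor, rose by 0.71 ± 0.17 in BALB/c and by 2.01 in C57BL/6, a strain difference of -1.30. Eva1a, a gene of autophagy, fell in BALB/c by a difference of -0.83 ± 0.24, with values on 3 of the 4 CpG arrays, and differed by 0.53 in C57BL/6, without a call there, a strain difference of -1.36. Neither BALB/c difference was called with run in the fit (adjusted p = 0.29 and 0.461), and that of Eva1a also lost its call when CpG array 1, 2 or 3 or untreated array 2 was left out. In strains that differ in sequence a probe may bind unequally, and levels of the strains were not compared.

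Several of the largest BALB/c rises rested on a single probe. Ncoa1, a coactivator of nuclear receptors, was at 1.90, 1.78, 2.49 and 2.54 on the CpG arrays and -1.98 to -1.52 (median -1.74) on the untreated arrays, a difference of 3.92 ± 0.20 (adjusted p = 2.88e-16). Its other probe differed by -0.13, and its response in C57BL/6 was -0.24. Oscp1 rose by 3.93 ± 0.21 and Rita1 by 3.60 ± 0.20, against 0.02 and -0.17 by their other probes, and Mthfsd by 3.47 ± 0.24, against 0.04 and 0.19. Slc7a2, an arginine transporter, rose by 1.99 ± 0.17, against -0.08, 0.00 and -0.01 by its other probes. Impg2, Cdh6, Asic5 and Gucy1b2, each with a single probe tested, rose by 4.07 ± 0.21, 3.97 ± 0.24, 3.47 ± 0.30 and 3.25 ± 0.20. All 9 responded less in C57BL/6, with strain differences from 1.71 (Slc7a2) to 4.16 (Ncoa1). Asic5 and Gucy1b2 were named for their strain difference, so for them the smaller response was part of the choice. Whether these probes read the gene they are named for was not tested.

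**Figure D5:**
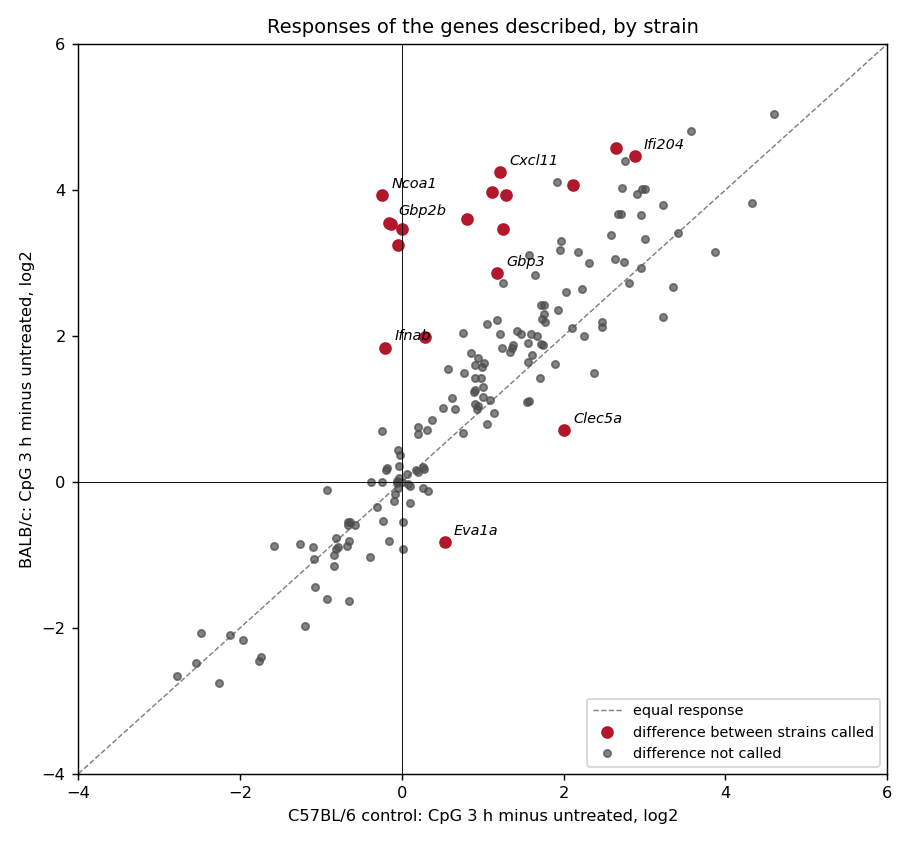
Log2 difference of CpG 3 h minus untreated in BALB/c (vertical axis) against the same in C57BL/6 control mice (horizontal axis) for the genes described, each point a gene, red where the difference between the strains was called and the dashed line at equal response. Points above the line had a higher difference in BALB/c, and Ncoa1 (3.92 ± 0.20 in BALB/c, -0.24 in C57BL/6) and Gbp2b (3.55 ± 0.26 and -0.16) lie far above it.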

How the data were processed

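Spleen RNA (Cy5) and universal mouse reference RNA (Cy3) were hybridised to 2-colour arrays. The authors deposited 1 log2 value per probe and array (Cy5 over Cy3), which per the labels' series text they background-corrected, cleared of flagged spots and of spots with both signals under 100, and normalised by lowess. Arrays were centred here on their medians. Of 36607 probes, 26926 carried 1 gene symbol, 203 several and 9478 none. A gene was read by the probe with most values, and probes needed values on over 70% of arrays, which left 15264 genes. Differences were tested with limma 3.58.1 in R 4.3.3 (lmFit and eBayes, 8 group means over 34 BALB/c arrays), with Benjamini-Hochberg adjustment over all genes at 0.05. The C57BL/6 fit held 16 arrays and the strain test all 50. On simulated data 50 of 50 rises of 2 log2 units and 37 of 50 of 1 unit were called, with 47 and 38 of 50 such falls and 10 false calls. The simulated errors were independent between arrays and held no run effect, so these counts do not cover errors due to run. ± is the standard error unless SD is named. The series text describes independent experiments, 4 per time point. Named genes were the 25 largest rises and falls without overlap, up to 6 called members per list and direction, and leading genes of the other comparisons. For the largest rises and falls, the lack of overlap was thus part of the choice. Genes without a call were named after their values were seen. Members and lists were chosen with earlier results of these data known. The number of arrays limits precision.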

Additional observations from a re-analysis of the deposited data

Results flagged for a closer look

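Single arrays stood apart from their own group for some of the genes described. An array was counted where its gap to the nearest other array took up more of the group's range than Dixon's test allows at the 95% level. This held in 23 of 333 groups of arrays, 13 of them among CpG 3 h arrays and 10 among untreated arrays, and chance flags about 1 in 20 groups. Each value is a level, the log2 ratio of spleen to reference. Among the CpG 3 h arrays, far above the rest of the group were Ccr7 at 4.98 on CpG array 3, Cd274 at 3.46 on CpG array 4, Map3k8 at 3.80 on CpG array 4 and Parp9 at 0.73 on CpG array 1. So were Pfkfb3 at 3.16 on CpG array 2, Slc48a1 at -0.63 on CpG array 1 and Trim21 at 0.60 on CpG array 1. Far below the rest of the group were Acadm at -1.14 on CpG array 2, Cd180 at 2.21 on CpG array 1, Ifi204 at 2.23 on CpG array 1 and Ikbkg at 0.13 on CpG array 2. So were Plekha6 at -1.03 on CpG array 3 and Slfn4 at 3.31 on CpG array 2. Among the untreated arrays, far above the rest of the group were Adamts4 at 0.65 on untreated array 2, Atf3 at -0.46 on untreated array 4, Ftl1 at 0.82 on untreated array 5 and Hdc at 1.33 on untreated array 2. So were Ifit2 at 0.086 on untreated array 1, Il7 at 1.11 on untreated array 1 and Tlr9 at 0.55 on untreated array 2. Far below the rest of the group were Il15 at -0.082 on untreated array 4, Psmb8 at 1.53 on untreated array 2 and Tlx1 at 3.42 on untreated array 5.

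The response to CpG at 3 h differed between BALB/c and C57BL/6 for 18 of the genes described, by the test of that difference. Each value is the BALB/c response minus the C57BL/6 response on the log2 scale. Interferon, chemokine and interferon-induced genes that responded more in BALB/c were Cxcl11 (3.03), Gbp2b (3.71), Gbp3 (1.68), Ifi202b (3.67), Ifi204 (1.58), Ifit2 (1.92) and Ifnab (2.04). Other genes that responded more in BALB/c were Asic5 (3.47), Cdh6 (2.86), Gucy1b2 (3.29), Impg2 (1.96), Mthfsd (2.21), Ncoa1 (4.16), Oscp1 (2.64), Rita1 (2.80) and Slc7a2 (1.71). Values below 0 were those of Clec5a (-1.30), which rose less in BALB/c, and Eva1a (-1.36), which fell in BALB/c. The part of strain differences in probe binding was not tested.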

How the results depend on the processing

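Of 138 genes described and called, 110 stayed called with array run as a fixed effect and 93 within the run that holds both groups, where Irak3 could not be tested. Leaving out single arrays kept 122, and with run as a random block, array weights, uncentred ratios, the mean of all probes or no filter on missing values all 138 stayed called. The random block found a correlation of 0.0028 between arrays of a run. That fit was therefore nearly the main one, with 1510 genes called against 1520, and says little about run. Adamts4 reversed within the shared run, at a difference of -0.0087. The count of genes that differed between CpG 3 h and untreated arrays was 660 with run as a fixed effect, 380 within the shared run and 2656 with array weights, against 1520, and the cause was not tested. It was 1212 to 1424 with single arrays left out, and the count past 2-fold was 586 to 618, against 597. Control ODN against untreated gave 216 genes and was the least stable: 1372 with array weights, 135 with the mean of all probes, 38 with only the arrays compared, 47 after quantile normalization, and 0 with limma after scaling to the same spread or with the replicate block, where 2707 and 2702 genes had an unadjusted p under 0.05. Leaving out single arrays gave 0 to 2127, with 0 without control ODN array 1 (2170 genes at an unadjusted p under 0.05), 8 without array 2, 3 without array 3, 2127 without array 4, and 37, 12, 33 and 3 without untreated arrays 1, 2, 5 and 6. CpG against control ODN gave 3948 with array weights and 1623 to 3543 with single arrays left out, lowest without control ODN array 3 and 1849 without array 1, against 2790. The difference of 3 h and 1 h gave 389 with run as a fixed effect (258 higher and 131 lower, against 623 and 917), 3506 with array weights and 885 to 1760 with single arrays left out (885 and 981 without 1 h arrays 1 and 2), against 1540. The difference of 9 h and 3 h gave 54, 575, 289 after scaling to the same spread, and 77 to 168 (77, 85 and 95 without CpG 3 h arrays 2, 3 and 4, and 87, 101 and 99 without 9 h arrays 1, 2 and 3), against 152. C57BL/6 gave 1563 with array weights, 1440 with run as a random block and 766 to 1123 with single arrays left out, lowest without CpG array 2, against 1151. The strain difference gave 40 with run as a fixed effect, 119 with array weights and 48 to 73 with single arrays left out, against 69. Same-numbered CpG and untreated arrays deviated from their group means with correlations of 0.15, -0.01, 0.41 and -0.11. Those of arrays with different numbers ran from -0.41 to 0.32. So few values cannot decide whether same-numbered arrays were paired. The replicate block gave 1299 genes and kept 131 of the 138 calls. Run as a fixed effect could not be estimated for comparisons with control ODN. How far run rather than treatment sets the remaining differences cannot be told apart where a run held a single group.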
